A study of Mus musculus with 6 samples.

Results

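The genes described here are 30 genes that make cholesterol and fatty acids, or that control those enzymes through the sterol regulatory element binding proteins (SREBPs). They were chosen by name and comprise 18 enzymes of the sterol branch, 6 enzymes of the fatty acid branch, and 6 genes of SREBP control and sterol transport. Each symbol matched 1 of the 55450 gene identifiers in the files, and all 30 were among the 12891 genes that passed the filter on low counts and were tested. The data are RNA profiles of mouse embryonic stem cells, from 3 libraries of Hoxd12-/- cells (the knockout) and 3 of wild-type cells. Both groups are C57BL6, are labelled as from E3.5 embryos and were grown in mES+2i medium, a stem cell medium with a pair of kinase inhibitors; libraries were made with a stranded mRNA kit. How the deletion was made and how many clones were used is not given in the labels. Nothing in them ties the replicates to separate cultures, so each p-value weighs a difference against a spread between libraries that may be technical.

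Cells build cholesterol from acetyl-CoA through mevalonate, isoprenoid diphosphates, squalene and lanosterol, and they build fatty acids from the same acetyl-CoA through malonyl-CoA. SREBPs are made as membrane proteins of the endoplasmic reticulum, where SCAP escorts them and INSIG proteins hold the complex back when sterols are plentiful. When sterols run low, the complex moves to the Golgi, where proteases release the part of the SREBP that enters the nucleus and binds sterol regulatory elements, often beside the factor NF-Y, which binds CCAAT. SREBP2 acts mainly on the sterol branch and SREBP1 mainly on the fatty acid branch.

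Promoter sequences are shown for 3 enzymes whose counts differed between the groups, because these genes are described as targets of SREBP and NF-Y. RefSeq promoters on build GRCm38.p6 matched 24 of the 30 genes, with 32 promoters, and the 250 bases before each annotated start were searched on both strands. Those below belong to Hmgcs1 (chr13:119690101-119690350, plus strand) and Lss (chr10:76531355-76531604, plus strand), whose counts rose in the knockout, and to Fasn (chr11:120824548-120824797, minus strand), whose count fell. Capitals mark the sterol regulatory element TCACNCCAC and CCAAT, each on either strand.
Hmgcs1: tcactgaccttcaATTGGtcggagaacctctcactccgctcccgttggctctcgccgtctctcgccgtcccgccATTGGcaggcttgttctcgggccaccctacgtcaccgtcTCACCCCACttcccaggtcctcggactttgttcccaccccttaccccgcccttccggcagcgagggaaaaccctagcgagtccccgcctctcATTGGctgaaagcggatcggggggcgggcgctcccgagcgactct
Lss: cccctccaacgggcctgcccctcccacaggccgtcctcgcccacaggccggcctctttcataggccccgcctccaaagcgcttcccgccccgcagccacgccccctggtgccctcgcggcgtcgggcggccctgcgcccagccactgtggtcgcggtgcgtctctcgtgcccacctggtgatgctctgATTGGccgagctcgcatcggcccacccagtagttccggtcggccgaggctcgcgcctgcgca
Fasn: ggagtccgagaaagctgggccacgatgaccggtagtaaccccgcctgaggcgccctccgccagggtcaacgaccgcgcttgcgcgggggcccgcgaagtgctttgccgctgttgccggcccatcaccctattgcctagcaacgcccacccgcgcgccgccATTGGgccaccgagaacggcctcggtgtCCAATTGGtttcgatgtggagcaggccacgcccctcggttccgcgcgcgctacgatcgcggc
The sterol element was found in 1 of the 24 genes and 1 of the 32 promoters, that of Hmgcs1, where it began 137 bases before the start. Of all 32851 RefSeq promoters of the same length, 1.05% held it. CCAAT was found in 19 of the 24 genes and in 20 of the 32 promoters, against 33.8% of all promoters. The Hmgcs1 and Fasn windows held 3 CCAAT matches each, of which a pair in Fasn share letters on opposite strands, and the Lss and Cyp51 windows held 1 each. The E-box CACGTG was found in 5 of the 24 genes and in 5 of the 32 promoters, against 6.02% of all promoters. The GC box GGGCGG was found in 20 of the 24 genes and in 23 of the 32 promoters, against 32.7% of all promoters. No matches of different motifs overlapped in the 32 promoters. These matches are letters in a window and not measured binding sites.

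Library totals ran from 5412577 to 6280934 expected counts, so 3 counts equal 0.478 to 0.554 CPM (counts scaled to a common library size), a floor for counting error alone. Hoxd12 was at 0 counts in all 6 libraries, so its RNA gives no check of genotype. All 10 stem cell markers were tested and summed to 8944 to 9434 CPM in knockout libraries against 8776 to 9399 in wild-type libraries, with 1 that rose (Zfp42) and 1 that fell (Nanog). The 10 fibroblast markers summed to 4.16 to 5.70 against 7.17 to 9.95 CPM, with Col3a1, Col6a3, Postn, Lum, Dcn and Twist2 at 0 counts throughout, and the 1 that was tested (Thy1) fell. The 8 primitive endoderm markers summed to 6.62 to 11.7 against 3.91 to 6.99 CPM, with Sox7 at 0, and the 1 tested (Gata4) rose. The 5 blood markers summed to 12.1 to 14.4 against 11.7 to 17.4 CPM, with Ptprc and Lyz2 at 0. The part of these markers in the results below was not tested.

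The pathway did not shift as a block. Of the 30 genes, 4 rose and 5 fell in the knockout, and 21 did not pass edgeR's quasi-likelihood test at a Benjamini-Hochberg adjusted p below 0.05. Over all tested genes 12.1% rose and 14.4% fell, 26.5% in all, so the counts lie near the background. The genes that rose were Cyp51, Lss, Hmgcs1 and Scd1, and those that fell were Fasn, Fdps, Acat2, Fdft1 and Acly. No change reached 2-fold, and log2 fold changes, given throughout as knockout minus wild type, ran from -0.39 to 0.29 with a median of 0.00, against 0.02 over all tested genes. CPM did not overlap between the groups for 10 of the 30 genes, where 39.7% of tested genes had no overlap.

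DESeq2 called 1 rise, of Cyp51, and 3 falls, of Fasn, Fdps and Acat2, where it called 5.44% and 9.99% of all genes. With no filter on low counts 3 rose and 3 fell, against 6.03% and 7.26% of all genes, and Scd1, Fdft1 and Acly did not pass. Omitting knockout replicate 2 or wild-type replicate 2 left 2 that rose, omitting knockout replicate 1 left 2 that fell, and omitting wild-type replicate 2 or 3 left 3 that fell. Over all genes, 8.50% to 10.8% rose and 11.3% to 13.5% fell in the 6 fits that each omit a library, below the shares with all libraries. In bulk RNA, fewer cells of a kind and less RNA per cell cannot be told apart.

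**Figure D1:**
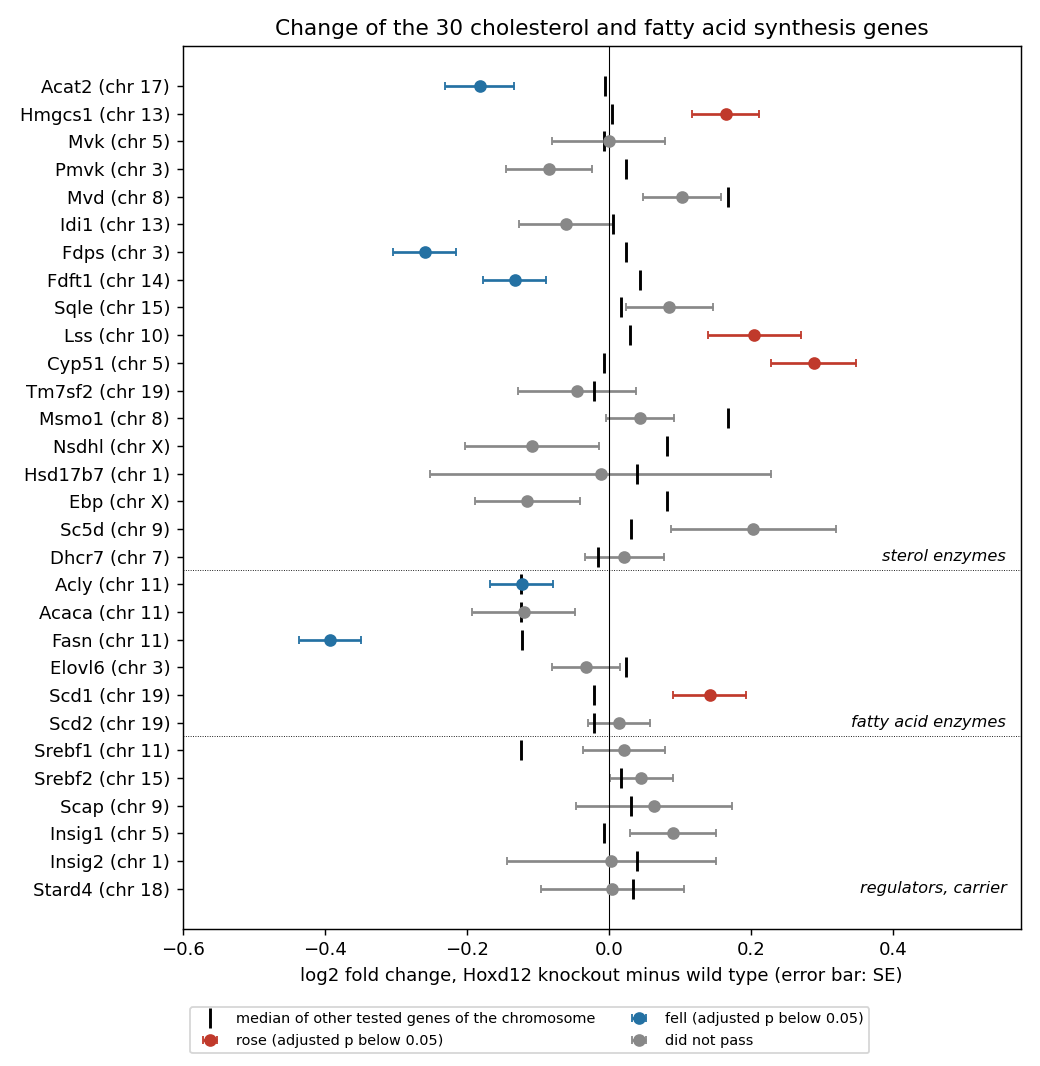
Log2 fold change, knockout minus wild type, of the 30 genes in pathway order, with the SE from edgeR as error bars; colour marks genes that rose, fell or did not pass, and ticks give the median of the other tested genes of the same chromosome. Fasn, at -0.39, lies left of its tick, while Acly and Acaca lie on theirs.

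Levels per transcript length, as TPM (a share of all transcripts, scaled by length), differed widely between the genes in wild type. Fdps, the synthase of farnesyl diphosphate, stood at 428 ± 6.63 TPM (SD, n = 3) and made up 39.0% of the sterol branch. Fasn followed at 157 ± 13.3 TPM, then Scd2, Msmo1, Acat2 and Pmvk at 91.4, 86.2, 80.2 and 76.5 TPM, with no overlap between neighbours. The place of Fasn rests on a mean length of 2755 bases used for scaling in wild type, where its longest annotated transcript has 10050. On CPM, which is not scaled by length, Scd2 stood above Fasn in wild type, at 563 against 500. The lowest was Hsd17b7, a sterol ketoreductase, at 1.35 ± 0.0781 TPM. Of the 29 neighbouring pairs in this order 13 overlapped between wild-type libraries, among them Fdft1 with Srebf2, Mvd with Acly, and each step from Insig2 through Sc5d, Acaca and Stard4 to Scap, which lie between 7.66 and 5.95 TPM.

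In the early sterol branch, from acetyl-CoA to farnesyl diphosphate, genes moved in opposite directions. Acat2, the cytosolic acetoacetyl-CoA thiolase (ENSMUSG00000023832, chr17:12942890-12960747, minus strand, GRCm38 as for all genes here), read 150.1, 156 and 166 CPM in knockout libraries and 179, 178 and 179.6 in wild type. All knockout values lay lower (log2 fold change -0.18, SE 0.05, adjusted p = 0.00463), and without knockout replicate 1 the change was -0.15 with adjusted p = 0.0551. On log2(TPM + 1), limma gave Acat2 -0.06 (adjusted p = 0.612). All tested genes had a median of 0.10 by that fit, and relative to it Acat2 lay at -0.16, against -0.20 on counts. Hmgcs1, the cytosolic HMG-CoA synthase of the next step (ENSMUSG00000093930, chr13:119690379-119708260, plus strand), read 155, 155 and 158 CPM in knockout libraries and 139.5, 139 and 139 in wild type. Its groups lay apart (log2 fold change 0.16, SE 0.05, adjusted p = 0.00922), a rise of 12.1%, and DESeq2 gave an adjusted p of 0.0924.

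Fdps (ENSMUSG00000059743, chr3:89093588-89101959, minus strand) read 455, 451 and 458 CPM in knockout libraries and 522, 555 and 556 in wild type, again apart. It fell by 16.4% (log2 fold change -0.26, SE 0.04, adjusted p = 3.38e-05), the largest fall in the sterol branch. Its TPM was 394, 361 and 413 against 420.2, 432 and 431, also without overlap, where limma on log2(TPM + 1) gave -0.14 (adjusted p = 0.112), or -0.24 relative to that median. The 4 other enzymes of this stretch did not pass. Mvk, mevalonate kinase, had a log2 fold change of 0.00 (SE 0.08), and Pmvk, phosphomevalonate kinase, of -0.08 (SE 0.06). For Mvd, which decarboxylates mevalonate diphosphate, it was 0.10 (SE 0.05), and for Idi1, the isopentenyl diphosphate isomerase, -0.06 (SE 0.07). Mvd overlaps Gm20388 on the opposite strand, which had 271 to 486 counts per library.

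At the entry into squalene, Fdft1, squalene synthase (ENSMUSG00000021273, chr14:63145150-63179578, minus strand), read 252, 255 and 254 CPM in knockout libraries and 266, 278 and 289.6 in wild type. The knockout values were close together and all lower (log2 fold change -0.13, SE 0.04, adjusted p = 0.0238). The call ended when knockout library 1 or 3 was omitted, or library 2 or 3 of wild type, at adjusted p from 0.0522 to 0.164, and with DESeq2 (0.0812). Fdft1 overlaps Ctsb on the opposite strand, which had 899 to 1135 counts per library and rose (log2 fold change 0.15, adjusted p = 0.0168). Whether counting used strand is unknown here, so reads of the overlap may not have been told apart. Sqle, squalene epoxidase, which controls the rate of this stretch, had 0.09 (SE 0.06, adjusted p = 0.333).

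The enzymes that make lanosterol and remove its first methyl group both rose. Lss, lanosterol synthase (ENSMUSG00000033105, chr10:76531588-76557138, plus strand), read 84.2, 88.9 and 85.7 CPM in knockout libraries and 77.2, 68.6 and 78.7 in wild type, with wild-type replicate 2 the lowest of the 6 (log2 fold change 0.21, SE 0.06, adjusted p = 0.0174). The call ended on omitting knockout replicate 2 (0.19, adjusted p = 0.0567) or wild-type replicate 2 (0.15, adjusted p = 0.143), and with DESeq2 (adjusted p = 0.123). Cyp51, the lanosterol demethylase (ENSMUSG00000001467, chr5:4081145-4104746, minus strand), read 99.6, 105 and 95.9 CPM in knockout libraries and 83.5, 79.5 and 82.8 in wild type. Its groups lay apart (log2 fold change 0.29, SE 0.06, adjusted p = 0.000397), and the rise passed in all 15 alternatives, with adjusted p from 7.10e-05 to 0.0158. Akap9, which overlaps it on the opposite strand, had 68.2 to 116 counts per library (0.26, adjusted p = 0.190).

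The later steps to cholesterol did not pass. Msmo1, the methylsterol oxidase, had a log2 fold change of 0.04, Nsdhl, the decarboxylating sterol dehydrogenase, -0.11, and Hsd17b7 -0.01 with an SE of 0.24. Tm7sf2, a sterol reductase, had -0.04, Ebp, the sterol isomerase, -0.11, and Dhcr7, which reduces 7-dehydrocholesterol, 0.02. Sc5d, the lathosterol desaturase, read 23.0, 20.6 and 22.8 CPM in knockout libraries and 19.7, 19.7 and 18.4 in wild type, without overlap, but did not pass (log2 fold change 0.20, SE 0.12, adjusted p = 0.208). Over the 18 sterol enzymes 3 rose and 3 fell, 16.7% each way beside 12.1% and 14.4% of all genes, with a median of -0.01.

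**Figure D2:**
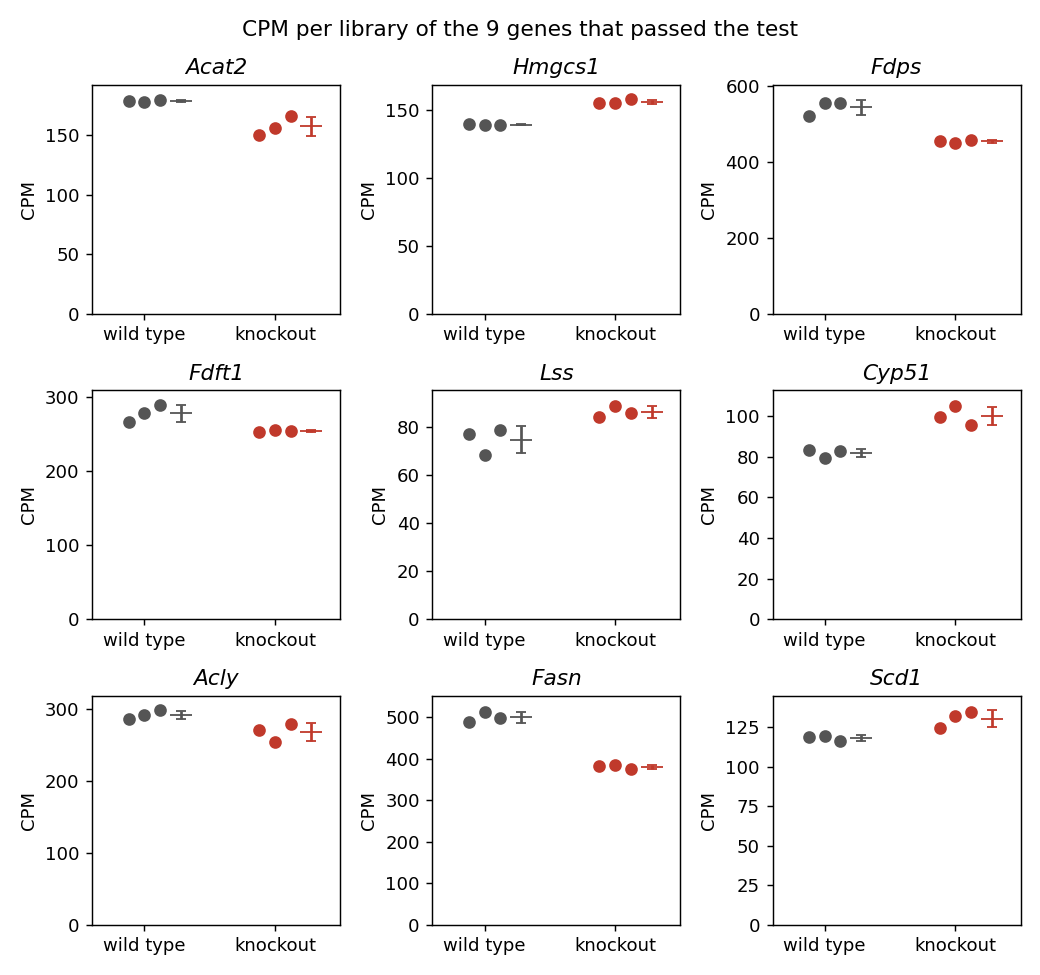
CPM of the 9 genes that passed edgeR's test, with each library as a point and the mean ± SD beside it, for wild type and knockout; each axis starts at 0. Fasn has the largest gap between its groups, and Fdft1, Acly and Scd1 have narrow gaps.

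In the fatty acid branch 1 of 6 genes rose and 2 fell, where 12.1% and 14.4% of all genes did. The median log2 fold change was -0.08, and 0.00 relative to the other genes of each chromosome. Of the 6, 3 lie on chromosome 11, described below. Fasn, the multifunctional fatty acid synthase (ENSMUSG00000025153, chr11:120805846-120824547, minus strand), read 383, 385 and 375 CPM in knockout libraries and 488, 514 and 498 in wild type. The count fell by 23.8% (log2 fold change -0.39, SE 0.04, adjusted p = 2.10e-08), the largest change of the 30 genes, and was called by DESeq2 and on omitting any 1 library. It was not called once transcript length entered, as described below. Acly, which splits citrate into the acetyl-CoA used by both branches (ENSMUSG00000020917, chr11:100476353-100528000, minus strand), read 270.2, 255 and 279 CPM in knockout libraries and 286, 291 and 298 in wild type (log2 fold change -0.12, SE 0.04, adjusted p = 0.0401). That call ended on omitting knockout replicate 1 or 2, or any wild-type library, with adjusted p from 0.0501 to 0.167, and with DESeq2 (0.117).

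Acaca, the acetyl-CoA carboxylase that makes malonyl-CoA (ENSMUSG00000020532, chr11:84129672-84401651, plus strand), read 61.6, 67.1 and 56.0 CPM in knockout libraries and 65.8, 67.3 and 67.0 in wild type, with overlap (log2 fold change -0.12, SE 0.07, adjusted p = 0.235). Its paralogue Acacb had 147 to 186 counts per library (0.20, adjusted p = 0.160). Elovl6, which elongates saturated fatty acids (ENSMUSG00000041220, chr3:129532355-129638495, plus strand), read 152, 155 and 149.9 CPM in knockout libraries and 155, 159.9 and 152 in wild type, with overlap (log2 fold change -0.03, SE 0.05, adjusted p = 0.679).

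The stearoyl-CoA desaturases Scd1 and Scd2 put a double bond into saturated fatty acids and lie near each other on chromosome 19. Scd2 (ENSMUSG00000025203, chr19:44293674-44306864, plus strand) carried 33.2% of the CPM of the branch in wild type. It read 579, 564 and 563 CPM in knockout libraries and 569.9, 558 and 561 in wild type, with overlap (log2 fold change 0.01, SE 0.04, adjusted p = 0.846). Scd1 (ENSMUSG00000037071, chr19:44394455-44407879, minus strand) read 125, 132 and 135 CPM in knockout libraries and 119, 119 and 116 in wild type, all higher in the knockout (log2 fold change 0.14, SE 0.05, adjusted p = 0.0400). The call of Scd1 ended on omitting knockout replicate 2 or 3, or any wild-type library, with adjusted p from 0.0717 to 0.143, and with DESeq2 (0.223). The similar copies Scd3 and Scd4 had 7.03 to 25.2 and 0 to 3.63 counts per library, and how reads were divided among the copies is not known.

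None of the 6 genes of SREBP control and sterol transport passed, by edgeR or DESeq2, and 0 had an unadjusted p below 0.05 in either. Over all tested genes edgeR called 26.5%, and DESeq2 called 5.44% higher and 9.99% lower. With 6 genes, a count of 0 does not set them apart from these shares. At that unadjusted threshold 1 was lower with the length offset and 1 higher without knockout replicate 1. Srebf1, which encodes SREBP1 (ENSMUSG00000020538, chr11:60199089-60222581, minus strand), read 112, 102 and 107 CPM in knockout libraries and 104, 101 and 111 in wild type (0.02, SE 0.06). Srebf2, which encodes SREBP2 (ENSMUSG00000022463, chr15:82147181-82205379, plus strand), read 273, 271 and 264 CPM in knockout libraries and 273, 251 and 258 in wild type (0.05, SE 0.04). On CPM the groups of both overlapped, and per length Srebf2 stood above Srebf1 in wild type, at 67.9 ± 2.67 against 26.7 ± 1.62 TPM. Scap, the sterol-sensing escort (ENSMUSG00000032485, chr9:110333288-110384950, plus strand), read 25.5, 26.1 and 31.9 CPM in knockout libraries and 25.7, 28.99 and 25.3 in wild type (0.06, SE 0.11).

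Insig1, a retention protein and itself a target of SREBPs (ENSMUSG00000045294, chr5:28071363-28078662, plus strand), read 93.5, 99.8 and 107 CPM in knockout libraries and 96.9, 95.4 and 89.5 in wild type (0.09, SE 0.06). Insig2, the other retention protein (ENSMUSG00000003721, chr1:121304353-121332589, minus strand), read 12.3, 13.0 and 13.7 CPM in knockout libraries and 12.2, 14.7 and 12.03 in wild type (0.00, SE 0.15). Stard4, which carries cholesterol between membranes (ENSMUSG00000024378, chr18:33199355-33213862, minus strand), read 29.9, 27.98 and 34.0 CPM in knockout libraries and 29.5, 31.1 and 31.3 in wild type (0.01, SE 0.10). CPM of the groups overlapped in all 6 genes, where 39.7% of all tested genes had no overlap. A p above the threshold does not show equal levels. On TPM, 2 did not overlap, on a scale where the median of all genes was 0.10 higher. The share of all genes without overlap on TPM was not counted, so these 2 cannot be set apart from it. Srebf1 was at 29.5, 30.6 and 28.6 in the knockout against 24.8, 27.8 and 27.4. Insig1 was at 34.7, 34.4 and 41.8 against 33.7, 32.0 and 29.9.

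The branches were compared by their summed level in each library, as a description with no test. The 18 sterol enzymes summed to 2054, 2075 and 2104 CPM in knockout libraries and 2131, 2160.2 and 2188 in wild type, a difference of -3.79% without overlap. The 6 fatty acid enzymes summed to 1570.3, 1559 and 1557 CPM in knockout libraries and 1684, 1709.9 and 1692 in wild type, a difference of -7.87% without overlap. Fasn made up -119 of the -133 CPM difference in its branch, and Fdps differed by -89.4 CPM where the sterol branch differed by -81.9. Without Fasn, a choice made after seeing the data, the fatty acid sum was 1181 ± 7.04 CPM in the knockout and 1195 ± 1.54 in wild type (SD, n = 3), still without overlap at -1.20%.

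On TPM the sums did not separate. The sterol sum was 1129, 1052 and 1203 TPM in knockout libraries, on both sides of the 1097, 1098 and 1097 in wild type. The fatty acid sum was 386, 343 and 418 TPM against 392.3, 369.5 and 356, which overlapped. TPM has a fixed total, and the median ratio of tested genes to their geometric mean over libraries ran from 0.984 to 1.10 in the knockout and from 0.952 to 0.988 in wild type. Divided by that ratio, also a choice made after seeing the data, the sterol sum was 1081 ± 15.1 in the knockout and 1136 ± 21.8 in wild type without overlap, and the fatty acid sum 366 ± 16.1 and 385 ± 11.6 with overlap. The fatty acid sum over the sterol sum was 0.339 ± 0.0109 in the knockout and 0.340 ± 0.0167 in wild type on TPM, with overlap. On CPM that ratio was 0.752 ± 0.0123 and 0.785 ± 0.0101, lower in the knockout without overlap. Without Fasn it was 0.569 ± 0.00861 and 0.554 ± 0.00791, higher in the knockout. There the groups did not overlap but nearly touched, with the lowest knockout library at 0.5617 and the highest wild-type library at 0.5614. With Hmgcs1 left out of the sterol sum the CPM ratio was 0.827, 0.812 and 0.800 against 0.846, 0.846 and 0.826, which overlapped.

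**Figure D3:**
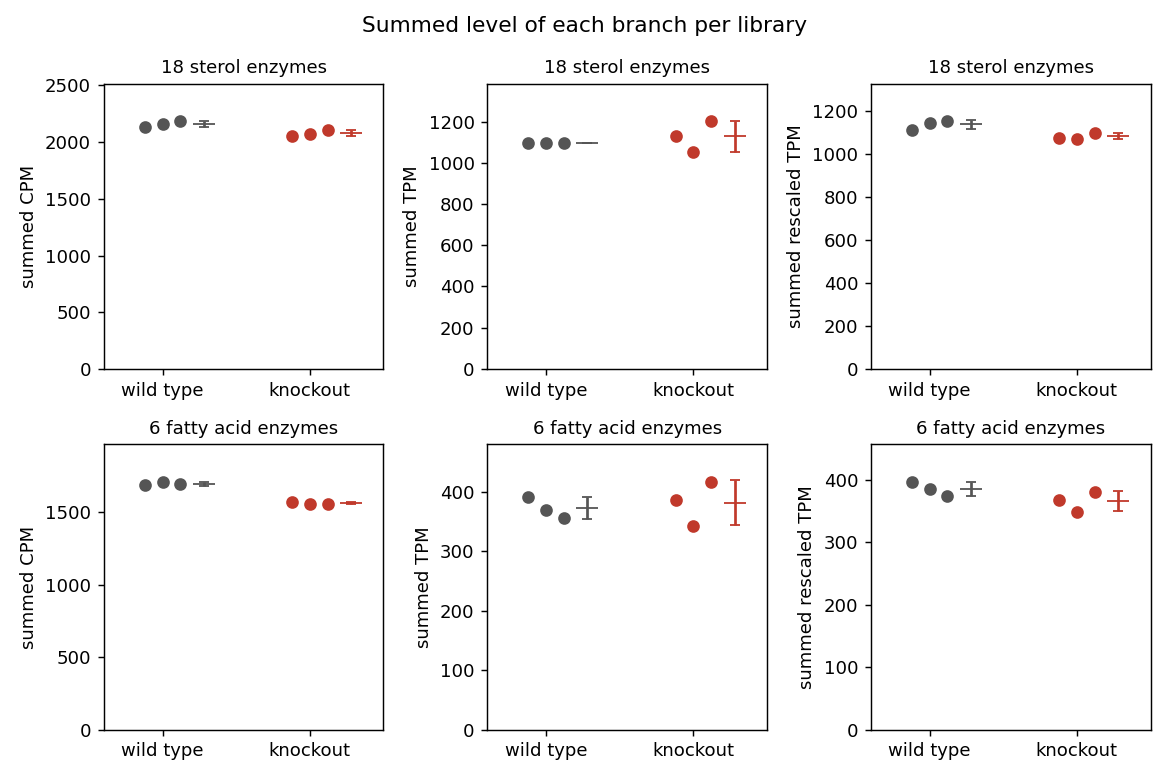
Summed levels of the 18 sterol and the 6 fatty acid enzymes in each library as points, with the mean ± SD beside them, for wild type and knockout. The CPM sums of the knockout lie below wild type, while the TPM sums overlap. On rescaled TPM, which is TPM divided by the median ratio of each library, the sterol sums lie apart and the fatty acid sums overlap.

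Besides its scaling, TPM differs from CPM through the effective length, an average over a gene's transcripts that the files list for each library. Mean effective length differed by over 10% between the groups in 5 of the 30 genes, against 15.7% of all tested genes. It differed by over 10% and also without overlap in 2 of the 30, against 5.96%. With smaller differences, the lengths of Dhcr7 (2.62%) and Fdft1 (-7.70%) did not overlap either. The share of all genes without overlap at any size of difference was not counted. Fasn has 6 annotated transcripts of 636 to 10050 bases, and its effective length was 2308, 2583 and 2029 bases in knockout libraries and 2502, 2872 and 2891 in wild type, with overlap. Its TPM was 158, 131 and 183 against 172, 153 and 146, which overlapped as well. With the effective length as an offset in edgeR the log2 fold change of Fasn was -0.11 (SE 0.08, adjusted p = 0.367). On log2(TPM + 1) it was -0.01 (adjusted p = 0.966), or -0.11 relative to the median of all tested genes, which stood at 0.10 on that scale.

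Elovl6 and Srebf2 had longer effective lengths in every knockout library. For Elovl6 they were 4984, 5279 and 5515 bases in knockout libraries and 4534, 4385 and 4503 in wild type. With the length offset Elovl6 fell (log2 fold change -0.25, SE 0.06, adjusted p = 0.00934), which it did not on counts. For Srebf2 they were 3795, 3750.4 and 3784 bases in knockout libraries and 3397, 3257 and 3291 in wild type. With the offset Srebf2 did not pass (-0.12, SE 0.05, adjusted p = 0.0721). These lengths rest on how reads were divided among transcripts, and transcripts were not tested.

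Lss had effective lengths of 2769, 3764 and 3210.4 bases in knockout libraries and 3943, 3509 and 3894 in wild type, with overlap. Its rise was larger with the offset (0.46, SE 0.09, adjusted p = 0.00191) and also larger by limma on log2(TPM + 1) (0.53, adjusted p = 0.0201), where it read 28.9, 20.8 and 26.4 TPM against 17.3, 16.8 and 17.2. Fdft1 had 3365, 3465 and 2897 bases in knockout libraries and 3511, 3505 and 3523 in wild type, without overlap. With the offset its change was 0.01 (adjusted p = 0.935). Hmgcs1, Lss and Cyp51 were the 3 genes that rose with the offset, where 8.07% of all genes rose. The same 3 rose on log2(TPM + 1), where 8.59% of all genes did, and on log2(TPM + 0.1), where 8.42% did. Acat2, Fdps and Elovl6 fell with the offset, where 11.1% of all genes fell. On both TPM scales limma called 0 of the 30 lower, against 5.81% and 5.72% of all genes; 1 and 1 of the 30 were lower at an unadjusted p below 0.05 on these scales.

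**Figure D4:**
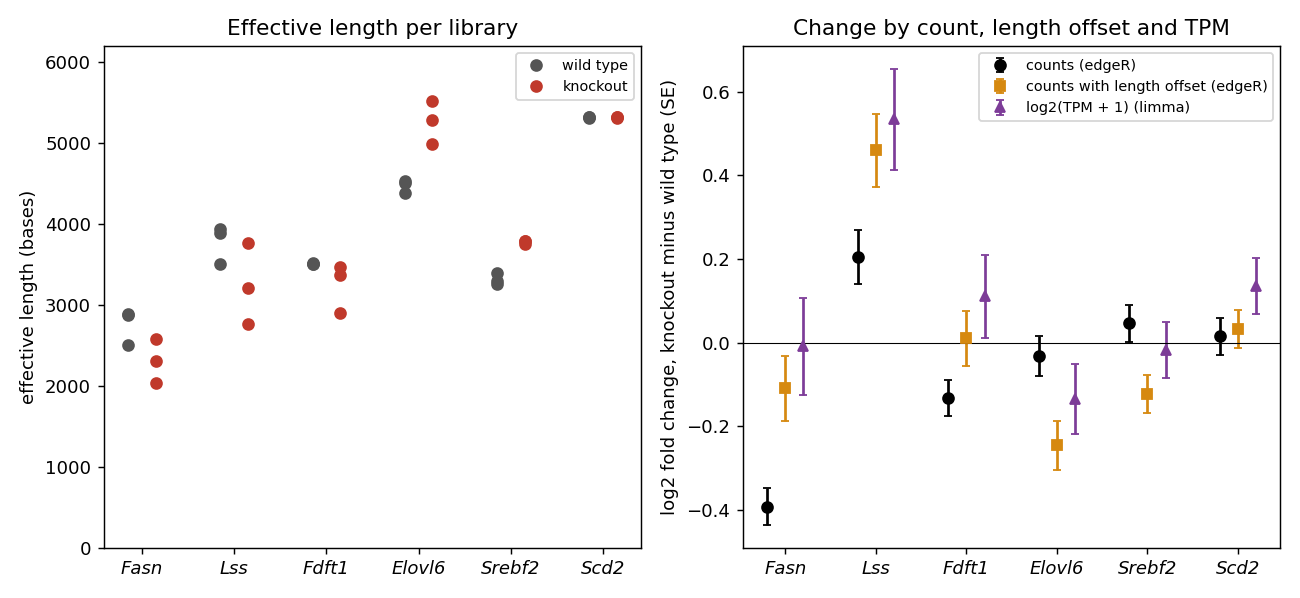
Left, effective length in bases of 6 genes in each wild-type and knockout library. Right, log2 fold change, knockout minus wild type, with its SE, from counts, from counts with a length offset and from log2(TPM + 1); Fasn moves from -0.39 to -0.11 and -0.01.

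Some of these genes sit on chromosomes whose genes were shifted as a whole. The median log2 fold change was -0.12 over 1050 tested genes of chromosome 11, where 27.9% fell and 3.24% rose. It was 0.17 over 703 tested genes of chromosome 8, where 30.2% rose and 5.97% fell. Chromosome 6, with a median of 0.16, carries 0 of the 30. Chromosome 11 carries Fasn, Acly, Acaca and Srebf1. Acly and Acaca lay at the median of its other genes, with differences of 0.00 and 0.00, so for both a change of the gene and the shift of the chromosome cannot be told apart. On counts, Fasn differed from that median by -0.27, and from the tested genes within 5 Mb by -0.21, while Srebf1 lay above it by 0.14. The fall of Fasn was not called with the length offset or on TPM, as given above. Its distance from the chromosome was not computed by those fits. Mvd and Msmo1, on chromosome 8, differed from its median by -0.06 and -0.12. Among genes called elsewhere, Cyp51 differed from its chromosome's median by 0.30, Lss by 0.18, Hmgcs1 by 0.16, Scd1 by 0.16, Fdps by -0.28, Acat2 by -0.18 and Fdft1 by -0.18. These differences too are on counts, and the fall of Fdft1 was not called with the length offset. Of the 24 genes off chromosomes 6, 8 and 11, 4 rose and 3 fell (16.7% and 12.5%), where 10.7% and 14.0% of all genes off those chromosomes did.

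A further list of 58 lipid genes was set beside the 30. Of 56 tested, 13 rose and 5 fell, with a median of 0.04, against 12.1% and 14.4% of all genes. Of these, 5 lie on chromosome 8, where 4 rose, as did 30.2% of all tested genes there. Off chromosomes 6, 8 and 11 there were 9 rises and 4 falls among 47 (19.1% and 8.51%), beside 10.7% and 14.0% of all genes. DESeq2 called 7 rises and 3 falls in the list (12.5% and 5.36%), beside 5.44% and 9.99% of all genes. Limma on log2(TPM + 1) called 8 (14.3%) and 0, beside 8.59% and 5.81% of all genes. The median of all genes on that scale was 0.10. Mbtps1, the Golgi protease that makes the opening cut in SREBPs, read 158, 162 and 172 CPM in knockout libraries and 112, 131 and 129 in wild type, without overlap (log2 fold change 0.40, SE 0.06, adjusted p = 1.47e-06). It lies on chromosome 8, whose median it exceeded by 0.24.

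Users of isoprenoids and sterol intermediates moved in both directions. Coq2, which attaches the isoprenoid tail of ubiquinone, read 50.3, 41.4 and 47.0 CPM in knockout libraries and 36.8, 34.9 and 31.1 in wild type (log2 fold change 0.44, SE 0.09, adjusted p = 0.000439). Lbr, a protein of the inner nuclear membrane with sterol reductase activity, read 69.5, 71.7 and 75.9 CPM in knockout libraries and 60.4, 54.7 and 54.7 in wild type (log2 fold change 0.36, SE 0.07, adjusted p = 0.000242). The groups of both genes lay apart. Fnta, the alpha subunit of protein farnesyltransferase, read 178, 173 and 171 CPM in knockout libraries and 142, 149 and 153 in wild type (log2 fold change 0.23, SE 0.05, adjusted p = 0.000364), and lies on chromosome 8, whose median it exceeded by 0.07. Fntb, the beta subunit, read 61.3, 54.1 and 56.7 CPM in knockout libraries and 72.0, 74.9 and 72.2 in wild type (log2 fold change -0.35, SE 0.07, adjusted p = 0.000274), and did not pass by limma on log2(TPM + 1) (adjusted p = 0.121). The subunits thus differed in direction on counts.

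Among 18 tested genes of fatty acid supply, elongation and desaturation, 5 rose (27.8%, against 12.1% of all genes) and 1 fell (5.56%, against 14.4%). Me1, the malic enzyme that yields cytosolic NADPH, read 59.2, 61.6 and 62.3 CPM in knockout libraries and 45.4, 48.2 and 47.4 in wild type (log2 fold change 0.38, SE 0.07, adjusted p = 0.000204). Slc25a1, the carrier that exports citrate from mitochondria, read 150.3, 158 and 144 CPM in knockout libraries and 168, 178 and 178 in wild type (log2 fold change -0.21, SE 0.05, adjusted p = 0.00117). The groups of both lay apart, and limma on log2(TPM + 1) did not call Slc25a1 (-0.10, adjusted p = 0.278), where the median of all genes was 0.10. Against the same 12.1% and 14.4%, 3 rose and 2 fell among 13 genes of isoprenoid use (23.1% and 15.4%), and 3 rose and 1 fell among 8 of SREBP processing (37.5% and 12.5%). Glycerolipid synthesis had 1 rise and 1 fall among 10 genes, and sterol sensing and export 1 rise and 0 falls among 7.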

How the data were processed

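RNA of 3 knockout and 3 wild-type libraries was compared, grouped by title. The files give, per the file headers, an expected count, TPM and FPKM with lengths for every gene. Expected counts are the estimated counts of the quantifier as deposited, and were rounded here. TPM and FPKM were scaled for length and library size by the authors, and FPKM entered no test. The submitters' processing notes list Bowtie (version 0.12.2) with builds mm8 and mm10, without their roles. Which quantifier, annotation and strand setting were used is not given in the sources used here. The 55450 identifiers all matched GENCODE M21 (GRCm38), which gave symbols and coordinates.

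The quasi-likelihood test of edgeR (4.0.16, under R 4.3.3) used TMM scaling, filterByExpr and robust dispersions, with Benjamini-Hochberg adjustment over 12891 genes; it was tested on simulated data. CPM is relative to TMM-scaled library sizes, and the limits set by 3 counts are relative to library totals. Alternatives were RLE scaling, scaling without chromosomes 6, 8 and 11, DESeq2 (1.42.0), other count filters, a replicate block, effective length as an offset, limma (3.58.1) on log2 TPM with a pseudocount of 1 or 0.1, and omission of each library.

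Members and lists were chosen with earlier results of these data known, so no set test was made. All 30 members could be named, with values per library for called genes, fatty acid enzymes and regulators. Of the other lipid genes, the 8 called with the smallest adjusted p and a mean of at least 5 CPM were taken, of which 1 is not reported here. Sc5d is given per library because its groups lay apart, a choice made after its values were seen. Of the other list, the symbol Ubxd8 had no match, so no gene was counted under that name. Faf2, of the same part of the list, was matched and tested.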

Additional observations from a re-analysis of the deposited data

How the results depend on the processing

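Low counts limit genes such as Hsd17b7 and Insig2 most. RLE scaling, scaling without chromosomes 6, 8 and 11 and a filter of 1 CPM in 3 libraries kept every count of calls within 1.5 times. DESeq2 called 701 genes higher, 1 of the 30 higher and 3 lower, with 1 rise among sterol enzymes, 0 rises and 1 fall among fatty acid enzymes, and 7 rises and 3 falls among other lipid genes. With no count filter 3 of the 30 fell, and fatty acid enzymes had 0 rises and 1 fall. With the length offset 3 of the 30 fell, fatty acid enzymes had 0 rises and 1 fall, and 8 other lipid genes rose. On log2(TPM + 1) and log2(TPM + 0.1), limma called 749 and 738 genes lower, 0 of the 30 (0 in either branch), 0 fatty acid enzymes higher, and 8 and 8 other lipid genes higher and 0 lower. Fatty acid enzymes higher at an unadjusted p below 0.05 numbered 0 with DESeq2, 1 with no filter, 0 with the offset and 0 on log2(TPM + 1). The change of Fdft1 became 0.11 and 0.11 on the TPM scales and 0.0101 with the offset, and that of Acly 0.000884 and 0.000836 on the TPM scales, where the median of all genes was 0.10 and 0.11. The cause was not tested, beyond the lengths given above.

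Omitting 1 library left 1118 to 1423 genes higher and 1486 to 1787 lower, of the 30 2 to 4 and 2 to 4, of sterol enzymes 2 to 3 and 1 to 3, of fatty acid enzymes 0 to 1 and 1 to 2, of regulators 0 and 0, and of other lipid genes 9 to 12 and 4 to 6. Summed sterol TPM differed by 2.80% (-0.624% to 6.25% with 1 library omitted), -3.79% on CPM and -4.81% rescaled. Summed fatty acid TPM differed by 2.62% (-2.11% to 7.86%) and -7.87% on CPM, and their ratio by -0.320% (-2.46% to 2.39%). Deviations of same-numbered libraries from their group means had correlations of 1.1e-05, 0.0389 and 0.0182. Differently numbered pairs were not compared, and whether same-numbered libraries shared a culture or day was not tested. With the replicate block 1513 genes rose and 1840 fell, and 4 and 5 of the 30.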
